A study of Mus musculus with 4 samples.

Results

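MicroRNA loci were followed in cultured mouse cortical neurons exposed to the p53 activator Nutlin-3. The loci are the rows of the deposited expression table whose symbol starts with Mir and a digit or with Mirlet7. They number 66 of the 18854 genes listed, 57 of them precursors, named for a hairpin, and 9 of them host genes, whose symbol ends in hg and which are long noncoding RNAs that carry hairpins. Wild-type neurons were kept for 15 days in culture and then given either Nutlin-3, which keeps Mdm2 from binding p53, for 2 days, or the solvent DMSO, with 2 libraries of each. The solvent group is named from the sample titles, since its treatment label reads as untreated. Whether 2 libraries of a group stem from different cultures is not stated in the labels, and the p-values then reflect only how far these libraries differ, which may be technical.

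A microRNA begins as a hairpin within a longer primary transcript, often in the intron of a host gene. In the nucleus the enzyme Drosha and its partner Dgcr8 cut the hairpin out, Xpo5 and Ran carry it to the cytoplasm, Dicer1 trims it to a short duplex, and an Argonaute protein takes up 1 strand to silence messenger RNAs that match its seed, bases 2 to 8. In neurons, miR-124, miR-9 and miR-128 are abundant and shape differentiation and excitability, and p53 is known to raise some microRNAs, such as those of the miR-34 family. The libraries here were made from total RNA depleted of ribosomal RNA, so a read assigned to a precursor may come from the hairpin or from any longer RNA that spans it, and these cannot be told apart. Mature microRNAs were not measured separately.

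The sequences of the loci on which the results turn are given here to show what each row stands for. RefSeq's table for GRCm38.p6 held 82 mature sequences for 51 of the 57 precursors, from 19 to 26 bases long, and hairpins for 47, from 61 to 130 bases long. In the hairpin of Mir128-1, an intronic precursor, capitals mark both mature arms:
Mir128-1 hairpin: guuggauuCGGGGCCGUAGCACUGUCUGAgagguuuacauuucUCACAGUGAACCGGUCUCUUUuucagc
In the mature sequences that follow, capitals mark the seed. The first 9 come from the precursors that fell with the activator:
miR-128-3p: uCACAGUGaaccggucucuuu
miR-99a-5p: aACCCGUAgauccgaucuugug
miR-708-5p: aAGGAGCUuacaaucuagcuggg
miR-690: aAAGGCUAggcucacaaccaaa
miR-1898: aGGUCAAGguucacaggggauc
miR-1188-5p: uGGUGUGAgguugggccagga
miR-341-3p: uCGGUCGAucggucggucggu
miR-3093-3p: uGUGGACAccgugggagguugg
miR-344-3p: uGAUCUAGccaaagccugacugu
The next comes from the precursor that rose, and the last pair from precursors that were tested and not called, of which miR-9-5p is a neuronal microRNA and miR-682 lies in a copy of a ribosomal protein gene:
miR-6236: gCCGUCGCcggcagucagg
miR-9-5p: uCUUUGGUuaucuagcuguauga
miR-682: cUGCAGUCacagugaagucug
Among the 82 sequences, 78 seeds were distinct, and 4 were shared by 2 precursors each: both arms of miR-344, from Mir344 and Mir344-2, miR-692, from Mir692-2 and Mir692-3, and the 3p arms of miR-379 and miR-411, which lie in 1 imprinted cluster:
miR-379-3p: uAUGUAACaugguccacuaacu
miR-411-3p: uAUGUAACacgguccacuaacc

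Values are CPM, the reads of a gene scaled to a common library total, with 14584247 to 19065197 reads per library, so that 1 CPM stands for 14.6 to 19.1 reads. The fit took the 16654 genes that reached 1 CPM in 2 or more libraries, and limma called 33.2% at an adjusted p under 0.05, 16.9% higher and 16.3% lower with the activator. Reads of mitochondrially encoded genes were 15.6% and 14.3% of the DMSO libraries and 8.97% and 9.99% of the activator libraries, and with each library scaled to the reads outside them 1278 genes were called higher and 3231 lower, against 2811 and 2721 as deposited. Of 6 neuronal markers, 4 were called higher and 1, Rbfox3, lower. The 6 summed to 4984 and 5526 CPM in DMSO against 5378 and 5414 CPM with the activator. Most of each sum came from Map2, which was not called, at 3605 and 4121 CPM in DMSO against 3564 and 3602 CPM with the activator. The sum therefore says little about the other markers. The 4 astrocyte markers summed to 779 and 768 CPM in DMSO against 856 and 861 CPM with the activator, each with an adjusted p of 0.0733 or more. Oligodendrocyte markers (3 of 4 listed) summed to 29.7 to 36.2 CPM and microglial markers (3 of 5 listed) to 2.88 to 4.53 CPM per library, and the part of these cells in the results was not tested. In such bulk samples, fewer cells of a type and less RNA per cell cannot be told apart. Among all 6923 listed genes with a mean under 5 CPM and a read in DMSO, 71.8% had a lower mean with the activator, against 48.8% of all 18789 genes with a read in DMSO. Most precursors stand at such low levels.

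Most precursors had a lower mean level with the activator. The ratio of the activator mean to the DMSO mean was under 1 for 46 of the 57, and its median was 0.591, beside 1.01 over all listed genes and 0.766 over listed genes with a mean under 1 CPM, where 40 of the precursors stand. For 29 precursors both activator libraries lay below both DMSO libraries, and for 3 both lay above, against 31.0% and 33.5% of all listed genes; in the remaining 25 the groups overlapped. Of the 29, 20 are among the 40 precursors with a mean under 1 CPM, a level at which 36.1% of listed genes were lower in this way and 9.01% higher. Among listed genes with a mean under 5 CPM the shares were 44.2% lower and 9.56% higher. The few precursors that were higher are thus near the share of genes at low levels. The reads of all 57 precursors added up to 130 and 131 CPM in DMSO and to 111 and 108 CPM with the activator, and more than 1 in 3 of them came from Mir682, which was not called. Counting precursors with a ratio under 1 again without each library gave 43 to 50 of 57.

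The filter kept 20 precursors, of which limma called 9 lower and 1 higher, with a median log2 fold change of -0.36 beside 0.03 over all genes tested. That 0.03 covers all levels and is not matched to the precursors. Listed genes with a mean under 5 CPM had a median ratio of 0.796, and those at 5 CPM or more had 1.07. Of the tested genes with a mean under 5 CPM, 22.9% were called lower and 0.835% higher. Of the 9, 5 (Mir128-1, Mir708, Mir1898, Mir690 and Mir99a) passed the filter only through their DMSO libraries, so their place among the tested genes already needed a difference. Their presence also lowers the median of the 20. Without any filter on low values 11 of the 57 were called lower and 1 higher, where 11.5% and 10.6% of all listed genes were. In edgeR's quasi-likelihood test on the recovered whole reads, also without a filter, 11 were lower and 1 higher, against 14.5% and 9.27% of genes, and 10 of the 11 were the same loci. With a filter on the mean over the 4 libraries, 7 of the 17 precursors tested were called lower, where 16.1% of genes were. The shares given for these other settings cover genes of all levels. They are not matched to the low level of most precursors. Removing a DMSO library takes those 5 out of the test, which then held 14 or 12 precursors. Of the 4 that passed the filter with both groups, 1 (Mir1188) was still called without DMSO replicate 1 and 2 (Mir1188 and Mir3093) without DMSO replicate 2. Without p53 activator replicate 2, where 20 precursors were tested, fewer were called lower than with all 4 libraries. Quantile normalization and DESeq2 called 1 lower each, Mir1188 in both. DESeq2 gave no adjusted p for the 5 that passed the filter only through DMSO, so it did not assess them.

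**Figure D1:**
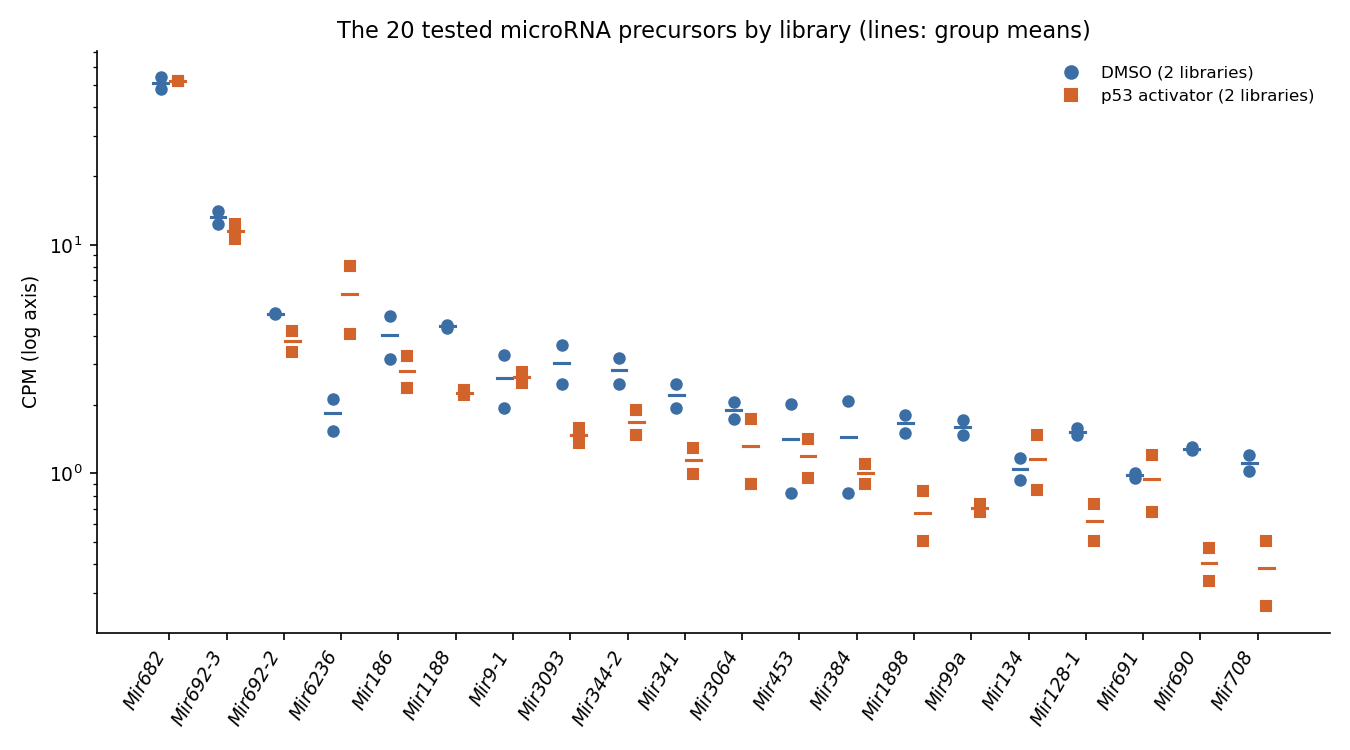
CPM (log axis) of the 20 precursors that passed the filter, ordered by mean, with 1 point per library and a line at each group's mean. Mir682, Mir692-3 and Mir692-2 stand highest with their groups close together, Mir6236 is higher in both activator libraries, and Mir1188, Mir690 and Mir708 are lower in both.

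The precursors are described next by their place in the genome, and the difference between places was not tested. Placed on GENCODE vM21, whose build (GRCm38) differs from the mm9 named in the submitters' processing notes, so that no coordinates are given, 30 lay in an intron of a gene on the same strand, 10 overlapped an exon, 7 lay on the opposite strand of a gene, 9 overlapped no other gene and 1 was not matched. Without a filter on low values, the 11 precursors that limma called lower were all intronic, as were 10 of the 11 that edgeR called lower. The exception in edgeR was Mir379, which overlaps no other gene, and the precursor called higher, Mir6236, overlaps none either. Of the 5 exonic precursors tested, limma called 0, and 0 had an unadjusted p under 0.05 or were called by edgeR. Among all genes tested 16.3% were called lower, and among those with a mean under 5 CPM 22.9%. With so few precursors, 0 is not far from these shares. The 5 also include Mir682, Mir692-3 and Mir692-2, which lie in copies of other genes. Summed over the 19 precursors in introns of protein-coding genes, the level was 19.5 and 22.0 CPM in DMSO against 11.9 and 9.82 CPM with the activator. The 11 in introns of noncoding genes summed to 21.9 and 19.4 CPM in DMSO and to 12.6 and 11.6 CPM with the activator. Exonic precursors summed to 73.8 and 77.6 CPM in DMSO and to 75.0 and 71.0 CPM with the activator, with the groups overlapping. Most of that sum came from 3 loci in copies of ribosomal protein and ferritin genes, Mir682, Mir692-3 and Mir692-2, with means over the 4 libraries of 51.6, 12.3 and 4.40 CPM.

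**Figure D2:**
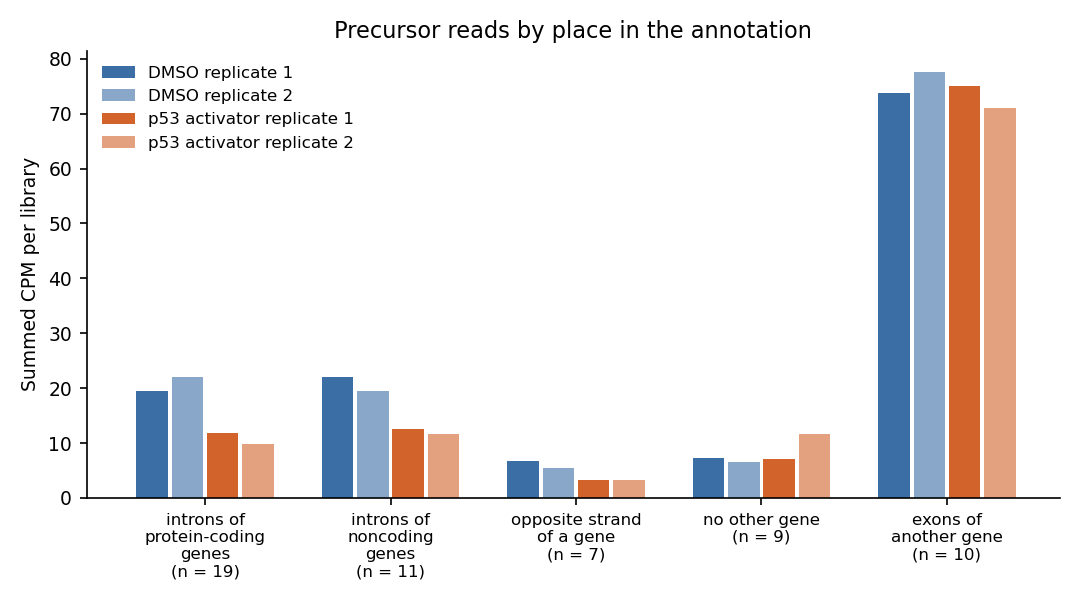
Summed CPM of the precursors in each library, by place in the annotation (bars from 0, 1 per library). Both intronic sums are lower in both activator libraries, while the sum of exonic precursors stays between 71.0 and 77.6 CPM, most of it from Mir682.

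Each of the 19 precursors in an intron of a protein-coding gene had a lower ratio than the gene around it. All 19 had a ratio under 1, from 0.212 for Mir6336 to 0.960 for Mir691, with a median of 0.477. The 19 genes had ratios from 0.822 (R3hdm1) to 1.30 (Klf9) with a median of 1.08. Of them, limma called 7 higher and 2 lower, where 16.9% and 16.3% of all genes were. Those shares include genes with a mean under 5 CPM, of which 0.835% were called higher and 22.9% lower. The 19 genes all had means of 58.8 CPM or more, so the shares are not matched to their level. Ratios went with level in the whole table: listed genes with a mean of 5 CPM or more had a median ratio of 1.07, close to that of the 19 genes, and listed genes under 1 CPM had 0.766. The precursors are far lower in level than their genes, and the part of level in the difference was not tested. In all 19 pairs the precursor's ratio was below its gene's. TMM factors and setting the mitochondrial reads aside scale all rows of a library alike, so they could hardly change this order and do not test it. Leaving out libraries can change it. The precursor's ratio was below in 18 pairs without DMSO replicate 1 and in 17 without DMSO replicate 2. It was below in 19 without p53 activator replicate 1 and in 18 without p53 activator replicate 2. In these 4 removals the ratio was under 1 for 16, 18, 19 and 17 precursors. The authors' rule for assigning reads to introns and exons is not given in the sources used here. The difference within pairs was not tested, and with 2 libraries against 2 an exact permutation p cannot be below 0.333. The genes' calls depended on scaling: with edgeR and TMM 3 were higher and 2 lower, and with the mitochondrial reads set aside 2 were higher and 3 lower. Without 1 library, 3 or 4 were higher and 0 or 1 lower.

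**Figure D3:**
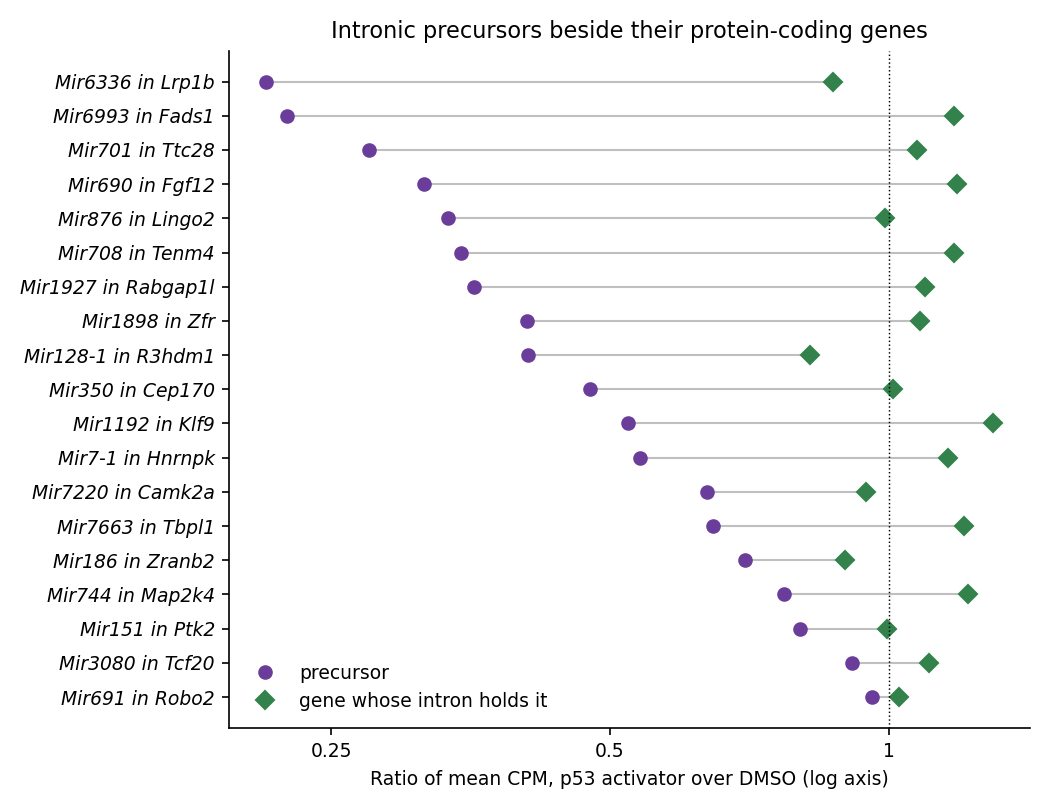
Ratio of mean CPM, activator over DMSO (log axis), for 19 precursors (circles) and the protein-coding genes whose introns hold them (diamonds), with a dotted line at 1. Every circle lies to the left of its diamond, from Mir6336 at 0.212 to Mir691 at 0.960, while the genes lie between 0.822 and 1.30.

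Mir690 lies in Fgf12, which encodes an intracellular regulator of sodium channels. It stood at 1.30 and 1.27 CPM in DMSO against 0.472 and 0.339 CPM with the activator, that is 19 and 19 reads against 9 and 6. Its log2 fold change was -0.70 ± 0.22 (SE), with a limma adjusted p of 0.00823 and an edgeR adjusted p of 0.0101. Fgf12 itself rose, from 183 and 177 CPM to 232 and 194 CPM (log2 fold change 0.24 ± 0.08 SE, limma adjusted p = 0.0136), a call that edgeR did not make (adjusted p = 0.0797). The means of precursor and gene thus moved in opposite directions. Mir690 passed the filter only through its DMSO libraries. Its limma adjusted p was 0.0144 without a filter and 0.0759 after quantile normalization.

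Mir708, in the teneurin gene Tenm4, an adhesion molecule of synapse partners, stood at 1.03 and 1.20 CPM in DMSO against 0.262 and 0.508 CPM with the activator. Its log2 fold change was -0.62 ± 0.22 (SE, limma adjusted p = 0.0232), and the call was lost without p53 activator replicate 1 (adjusted p = 0.129). Tenm4 was at 315 and 347 CPM in DMSO against 360 and 420 CPM with the activator, called higher by limma (0.23, adjusted p = 0.0192) and not by edgeR (adjusted p = 0.134). Both genes that surround these precursors had higher means with the activator while the hairpin rows had lower ones. Mir708 too passed the filter only through DMSO, and its limma adjusted p without a filter was 0.0275.

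Mir128-1 lies in R3hdm1 and gives the neuronal miR-128. Like Mir1898, described below, it passed the filter only through DMSO. Without a filter the limma adjusted p was 0.0237 for Mir128-1 and 0.0251 for Mir1898. Mir128-1 is given first. It stood at 1.58 and 1.47 CPM in DMSO against 0.734 and 0.508 CPM with the activator (23 and 22 reads against 14 and 9), a log2 fold change of -0.64 ± 0.21 (SE) at a limma adjusted p of 0.0148. Without p53 activator replicate 2 its adjusted p was 0.0965. R3hdm1, a gene of an RNA-binding protein, was 1 of the 2 surrounding genes called lower, from 198 and 188 CPM to 158 and 160 CPM (ratio 0.822, against 0.408 for Mir128-1). The other was Lrp1b, around Mir6336, where the precursor had 20 and 11 reads in DMSO against 1 and 7 with the activator. Mir1898, in the RNA-binding protein gene Zfr, stood at 1.51 and 1.80 CPM in DMSO against 0.839 and 0.508 CPM with the activator (log2 fold change -0.67 ± 0.21 SE, limma adjusted p = 0.0105), a call lost without p53 activator replicate 2 (adjusted p = 0.104), while Zfr had a ratio of 1.08 and was not called.

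Mir186, in the splicing factor gene Zranb2, was the most abundant of these 19 precursors and did not pass the test, at 3.15 and 4.88 CPM in DMSO against 3.25 and 2.37 CPM with the activator (-0.38 ± 0.19 SE, limma adjusted p = 0.118). Its groups overlapped. Mir691, in the axon guidance receptor gene Robo2, was also tested and not called (adjusted p = 0.900). The other 13 did not reach the filter. Among them Mir7-1, in the Hnrnpk intron that gives the neuronal miR-7, had 7 and 17 reads in DMSO against 8 and 8 with the activator, a ratio of 0.539, while Hnrnpk was called higher (adjusted p = 0.0265). Mir876 in Lingo2, with 13 and 28 reads against 9 and 8, was called lower without the filter (limma adjusted p = 0.0431), as were Mir6336 (0.0287) and Mir1927 in Rabgap1l (0.0448).

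Of the 7 precursors tested in introns of noncoding genes, 5 fell, where 22.9% of tested genes with a mean under 5 CPM did. Of these 5, Mir99a had passed the filter only through DMSO, and several of the surrounding genes fell too. Mir1188, in the imprinted noncoding RNA Rian, stood at 4.46 and 4.34 CPM in DMSO against 2.31 and 2.20 CPM with the activator, which is 65 and 65 reads against 44 and 39. Its log2 fold change was -0.73 ± 0.19 (SE, limma adjusted p = 0.00163; edgeR adjusted p = 0.00337), and it kept its call in each of the alternatives that tested it, including the removal of any 1 library. Mir341, also in Rian, stood at 2.47 and 1.94 CPM in DMSO against 0.997 and 1.30 CPM with the activator (-0.58 ± 0.21 SE, limma adjusted p = 0.0246). That call was lost without DMSO replicate 1, DMSO replicate 2 or p53 activator replicate 1 (adjusted p = 0.286, 0.0535 and 0.132). Rian itself was not called, at 650 and 673 CPM in DMSO against 700 and 623 CPM with the activator (log2 fold change 0.00 ± 0.09 SE, adjusted p = 0.993).

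Rian and Mirg are transcripts of 1 imprinted cluster expressed from the maternal chromosome, and 11 precursors lie from Rian to Mirg. Of these, 4 were tested, and Mir1188 and Mir341 were the 2 called. Mir134, which acts on dendritic spines and overlaps Mirg, stood at 1.17 and 0.935 CPM in DMSO against 1.47 and 0.847 CPM with the activator (0.06 ± 0.22 SE, adjusted p = 0.854), and Mir453 in Mirg was not called either (adjusted p = 0.748). Mirg fell from 12.1 and 13.0 CPM to 9.13 and 9.31 CPM (-0.41 ± 0.14 SE, limma adjusted p = 0.0201). Meg3, a noncoding RNA of the same cluster that holds none of the 11, fell from 1833 and 1575 CPM to 978 and 829 CPM (-0.92 ± 0.10 SE, limma adjusted p = 7.73e-13). The remaining 7 were below the filter, among them Mir379 at the head of the miR-379 group with 17 and 4 reads in DMSO against 4 and 1 with the activator, and Mir411, which shares the 3p seed shown earlier, with 11 and 11 against 8 and 7. Over the 11, the summed level was 13.9 and 12.9 CPM in DMSO against 8.55 and 8.47 CPM with the activator. Most of that fall came from Mir1188 and Mir341. Of the 11, 7 had a ratio under 1, where 71.8% of listed genes with a mean under 5 CPM did.

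Mir99a and Mirlet7c-1 share the host Mir99ahg. Mir99a passed the filter only through DMSO, and without a filter its limma adjusted p was 0.0282. Mir99a stood at 1.71 and 1.47 CPM in DMSO against 0.734 and 0.677 CPM with the activator (-0.60 ± 0.21 SE, limma adjusted p = 0.0218), a call lost without p53 activator replicate 2 (adjusted p = 0.0728). Mirlet7c-1, a let-7 hairpin, had 18 and 10 reads in DMSO against 6 and 8 with the activator and was not tested. Both ratios, 0.443 and 0.403, were below the 0.763 of the host.

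The noncoding gene Gm3764 holds 2 precursors, of which 1 was called. Mir3093 fell from 3.63 and 2.47 CPM to 1.36 and 1.58 CPM (-0.70 ± 0.20 SE, limma adjusted p = 0.00469), a call lost without DMSO replicate 1 (adjusted p = 0.217). Mir9-1, a source of miR-9, stood at 3.29 and 1.94 CPM in DMSO against 2.78 and 2.48 CPM with the activator (0.03 ± 0.20 SE, adjusted p = 0.919), and its sign changed with the scaling. Their difference from each other was not tested. The Mir3093 call was also lost with DESeq2 (adjusted p = 0.0724) and in limma after quantile normalization (adjusted p = 0.0981). Gm3764 fell (-0.58 ± 0.08 SE, limma adjusted p = 2.80e-08). Part of the Mir9-1 hairpin matches the noncoding gene C130071C03Rik at 93.2% identity, so reads of these loci may be shared.

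Mir344-2, in A330076H08Rik, stood at 2.47 and 3.21 CPM in DMSO against 1.89 and 1.47 CPM with the activator (-0.52 ± 0.20 SE, limma adjusted p = 0.0383), the weakest of the 9 calls. It was lost without a filter (adjusted p = 0.0740) and without DMSO replicate 1, DMSO replicate 2 or p53 activator replicate 2 (adjusted p = 0.0707, 0.318 and 0.215). Its hairpin matches that of Mir344 at 98.7% identity, so their reads are hard to separate. Mir344 had 21 and 8 reads in DMSO against 8 and 4 with the activator. Mir344e had 1 and 3 reads in DMSO and 0 in both activator libraries, too few for a fold. Their surrounding genes A330076H08Rik and A230057D06Rik fell with log2 fold changes of -0.69 and -0.74 (limma adjusted p = 2.13e-09 and 5.99e-09).

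Some abundant precursor rows have near copies in protein-coding genes. Of 54 hairpins searched against GENCODE transcripts, 8 had a match of at least 90% identity over at least 80% of their length in a gene elsewhere. Mir682 lies in a processed pseudogene and matches Rpl37a, a ribosomal protein gene, over its whole length at 98.96% identity. It was by far the highest precursor, at 48.0 and 54.1 CPM in DMSO against 52.0 and 52.2 CPM with the activator (log2 fold change 0.03 ± 0.09 SE, limma adjusted p = 0.820), and its sign changed with the scaling. Rpl37a was not called either (adjusted p = 0.776).

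Mir692-3 and Mir692-2 lie in copies of ferritin light chain genes, and Mir692-3 matches the ferritin light chain gene Ftl1 at 97.8% identity. Mir692-3 stood at 14.1 and 12.3 CPM in DMSO against 12.4 and 10.6 CPM with the activator (-0.19 ± 0.14 SE, limma adjusted p = 0.308). Mir692-2 stood at 5.01 and 5.01 CPM in DMSO against 4.20 and 3.39 CPM with the activator (-0.33 ± 0.18 SE, adjusted p = 0.153). Ftl1 had a log2 fold change of -0.18 (adjusted p = 0.0612), so neither precursor nor gene passed. Mir703 matches Eef1a1, the translation elongation factor, at 98.2% identity and had 10 and 8 reads in DMSO against 13 and 11 with the activator. Leaving out the 8 precursors with a copy, the 46 others that were searched had a median ratio of 0.517, and 39 of them had a ratio under 1.

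Mir6236 was the only precursor called higher, in limma and in edgeR. It had 31 and 23 reads in DMSO against 78 and 143 with the activator. Its log2 fold change was 1.27 ± 0.20 (SE), with a limma adjusted p of 1.95e-07 and an edgeR adjusted p of 0.000175. The 2 activator libraries stood apart from each other, at 4.09 and 8.07 CPM, both above the 2.13 and 1.54 CPM of DMSO, and the call was kept without each single library. It overlaps no other gene in the annotation. No copy at the limits given was found among annotated transcripts. Sequence outside these was not searched, so another source of its reads could not have been seen.

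Mir3064, in an exon of the helicase gene Ddx5, stood at 2.06 and 1.74 CPM in DMSO against 1.73 and 0.903 CPM with the activator (-0.34 ± 0.21 SE, limma adjusted p = 0.208), and Mir384, in no other gene, at 0.823 and 2.07 CPM in DMSO against 1.10 and 0.903 CPM with the activator (adjusted p = 0.417). The 7 on the opposite strand of a gene were all below the filter and summed to 6.72 and 5.54 CPM in DMSO against 3.36 and 3.27 CPM with the activator. Whether counting used strand is not stated, so their reads cannot be told apart from those of the genes across from them. In all, 37 precursors were not tested, and their median ratio was 0.539.

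The 9 host genes are longer and better covered, from 9.67 CPM for Mir124-2hg to 74.7 CPM for Mir124a-1hg on average, apart from Mir17hg. For 8 of the 9 both activator libraries lay below both DMSO libraries, and for Mir22hg both lay above, against 31.0% and 33.5% of all listed genes. Of the 8 tested, 5 fell and 0 rose, where 16.3% and 16.9% of all genes did. Among so few genes, 0 that rose is not far from that share. The count that rose was also 0 at an unadjusted limma p under 0.05 and in edgeR. The median log2 fold change was -0.36. Together the host genes held 308 and 277 CPM in DMSO against 218 and 195 CPM with the activator.

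Mir124a-1hg, the primary transcript of the neuronal miR-124 at 1 of its loci, stood at 101 and 84.6 CPM in DMSO against 58.1 and 54.9 CPM with the activator. The groups did not overlap, and the log2 fold change was -0.70 ± 0.08 (SE), with a limma adjusted p of 3.68e-11. Mir124-2hg, from another miR-124 locus, stood at 9.87 and 10.6 CPM in DMSO against 9.60 and 8.58 CPM with the activator and was not called (-0.16 ± 0.15 SE, adjusted p = 0.434, 95% interval -0.45 to 0.14). Whether the hosts differ from each other in their change was not tested.

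Mir100hg, the host of miR-100 and a let-7 and miR-125b hairpin, fell from 78.1 and 73.5 CPM to 54.1 and 45.1 CPM (-0.61 ± 0.09 SE, limma adjusted p = 1.36e-08). Mir99ahg, its relative with the hairpins of miR-99a, let-7c and a further miR-125b copy, fell from 22.5 and 20.1 CPM to 17.2 and 15.3 CPM (-0.37 ± 0.12 SE, limma adjusted p = 0.0106). It was not called by DESeq2 (adjusted p = 0.0714) or by limma with 1 prior spread for all levels of expression (adjusted p = 0.0740). The Mir99ahg call was lost without DMSO replicate 1 or p53 activator replicate 2 (adjusted p = 0.181 and 0.121), and that of Mir100hg was kept under every alternative run.

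Mir133a-1hg had the largest fall of the hosts, from 20.4 and 19.2 CPM to 11.6 and 9.82 CPM (-0.83 ± 0.13 SE, limma adjusted p = 1.49e-07). It is named for a muscle microRNA and lies on the strand opposite to the ubiquitin ligase gene Mib1, whose level rose (log2 fold change 0.28, limma adjusted p = 0.00486; edgeR adjusted p = 0.0523), and without strand their reads cannot be told apart. Its precursor Mir133a-1 had 5 and 10 reads in DMSO against 8 and 4 with the activator. Mir670hg, which also spans the hairpin of miR-129-2, fell from 19.7 and 18.3 CPM to 14.6 and 14.7 CPM (-0.35 ± 0.12 SE, limma adjusted p = 0.0182). DESeq2 did not call it (adjusted p = 0.0953), nor did limma with 1 prior spread for all levels of expression (adjusted p = 0.0620). It did not pass without DMSO replicate 1 (adjusted p = 0.176), p53 activator replicate 1 (0.0645) or replicate 2 (0.0630).

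Mir9-3hg, a host of miR-9, stood at 41.7 and 35.7 CPM in DMSO against 35.2 and 30.8 CPM with the activator (-0.22 ± 0.10 SE, limma adjusted p = 0.0689). It passed with edgeR and TMM (adjusted p = 0.0407). Mir22hg, the host of miR-22, a microRNA linked to p53, stood at 13.6 and 14.4 CPM in DMSO against 16.4 and 14.8 CPM with the activator (0.14 ± 0.13 SE, adjusted p = 0.405, 95% interval -0.11 to 0.40). Mir17hg, which carries the 6 hairpins of the miR-17 to miR-92 cluster of dividing cells, had 20 and 14 reads in DMSO against 15 and 11 with the activator and did not reach the filter.

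**Figure D4:**
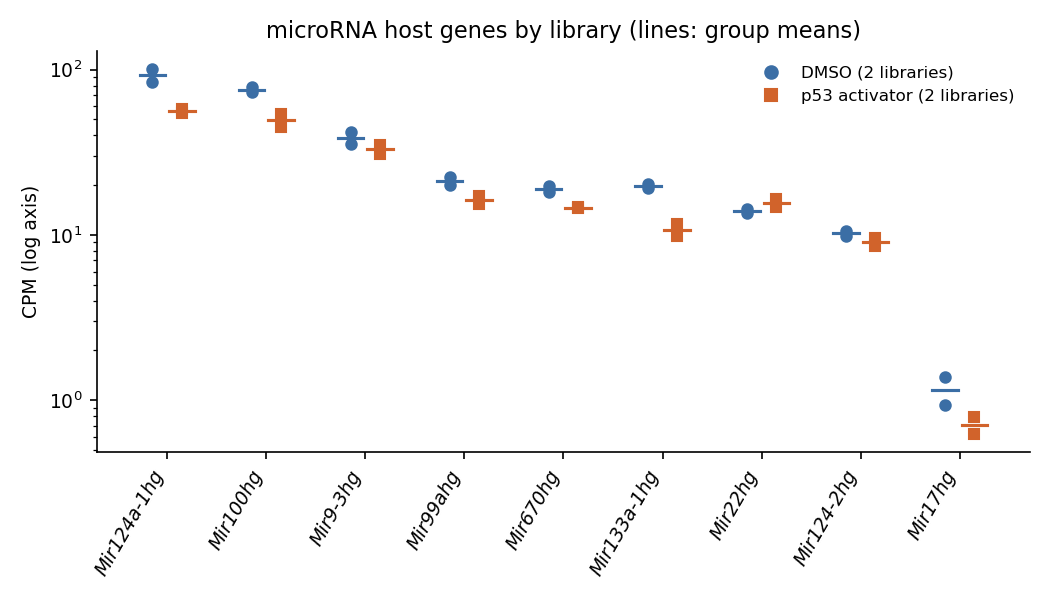
CPM (log axis) of the 9 host genes, ordered by mean, with 1 point per library and a line at each group's mean. Both activator libraries lie below both DMSO libraries for all but Mir22hg, and the gap is widest for Mir133a-1hg.

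Of 21 symbols on a list of microRNAs and hosts tied to p53, Mir22hg was the 1 listed in the table, and the other 20 were not analysed here. Of 40 symbols of microRNAs known from neurons, 12 were listed and 9 tested, of which 5 fell (Mir124a-1hg, Mir100hg, Mir99ahg, Mir99a and Mir128-1) and 0 rose, where 16.3% and 16.9% of all genes did. Mir99a and Mir128-1 had passed the filter only through DMSO, and Mir99a lies in Mir99ahg. All 5 were already counted among the precursors and host genes, so this count is no separate evidence. The list was also chosen with earlier results of these data known. The others tested, Mir124-2hg, Mir9-3hg, Mir9-1 and Mir134, are given with their values in the preceding paragraphs.

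Of 20 genes tested that make or turn over microRNAs, 2 rose and 6 fell, where 16.9% and 16.3% of all genes did, with a median log2 fold change of -0.03 beside 0.03 for all genes tested. Drosha, the nuclear nuclease, stood at 82.1 and 75.2 CPM in DMSO against 77.7 and 82.7 CPM with the activator (0.03 ± 0.08 SE, adjusted p = 0.816), and Dicer1 was not called either (0.12, adjusted p = 0.233). Dgcr8, the RNA-binding partner of Drosha, fell from 50.7 and 48.9 CPM to 42.7 and 39.7 CPM (-0.27 ± 0.09 SE, limma adjusted p = 0.0158). The helicase Ddx17, which assists Drosha, fell by 0.35 on the log2 scale, and Hnrnpa2b1, which binds marked primary transcripts, fell by 0.41. The export factor Xpo5 (0.25) and its GTPase Ran (0.30) rose. Both calls ended with the mitochondrial reads set aside, with DESeq2 and with quantile normalization. That of Xpo5 also ended with TMM factors and in edgeR (edgeR adjusted p = 0.0539).

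Lin28b, which binds let-7 hairpins and blocks their processing, had the largest fall on the list, from 16.5 and 17.6 CPM to 12.7 and 8.30 CPM (-0.68 ± 0.14 SE, limma adjusted p = 5.89e-05). Tut4, which adds uridines to such hairpins, and Tent2, which adds adenosines to mature microRNAs, fell as well (-0.22 and -0.36). DESeq2 called neither of these, nor Dgcr8. Leaving out 1 library at a time kept the calls of Lin28b and Hnrnpa2b1. Those of Dgcr8 and Tut4 were lost without either DMSO library or p53 activator replicate 2, that of Tent2 without DMSO replicate 1 or p53 activator replicate 2, that of Ddx17 without p53 activator replicate 2, that of Xpo5 without DMSO replicate 1 or p53 activator replicate 2, and that of Ran without DMSO replicate 2 or p53 activator replicate 1.

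Of 21 genes through which microRNAs silence their targets, 4 rose and 1 fell, with a median log2 fold change of 0.11. The share that rose is near the 16.9% of all genes, and 16.3% of all genes fell. With the mitochondrial reads set aside the balance turned, to 1 higher and 4 lower, and Ago1, Cnot1 and Dcp2 lost their calls. Ago2, the Argonaute that cuts targets, was not called, at 284 and 311 CPM in DMSO against 334 and 334 CPM with the activator (0.17 ± 0.08 SE, adjusted p = 0.0830). Ago1 rose (0.23), as did Cnot1, the scaffold of the deadenylase (0.27), the helicase Ddx6 (0.32) and the decapping enzyme Dcp2 (0.25), and the helicase Mov10 fell (-0.49). The Ago1 call was also lost with TMM factors and in edgeR (edgeR adjusted p = 0.0834). DESeq2 did not call Ago1, Dcp2 or Mov10, and quantile normalization lost these and Cnot1. Ddx6 alone kept its call without each single library. Without DMSO replicate 1 the calls of Ago1, Cnot1 and Mov10 were lost, without DMSO replicate 2 that of Dcp2, without p53 activator replicate 1 those of Ago1, Dcp2 and Mov10, and without p53 activator replicate 2 those of Ago1 and Cnot1. With 1 prior spread for all levels of expression, limma called 0 genes of either list.

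**Figure D5:**
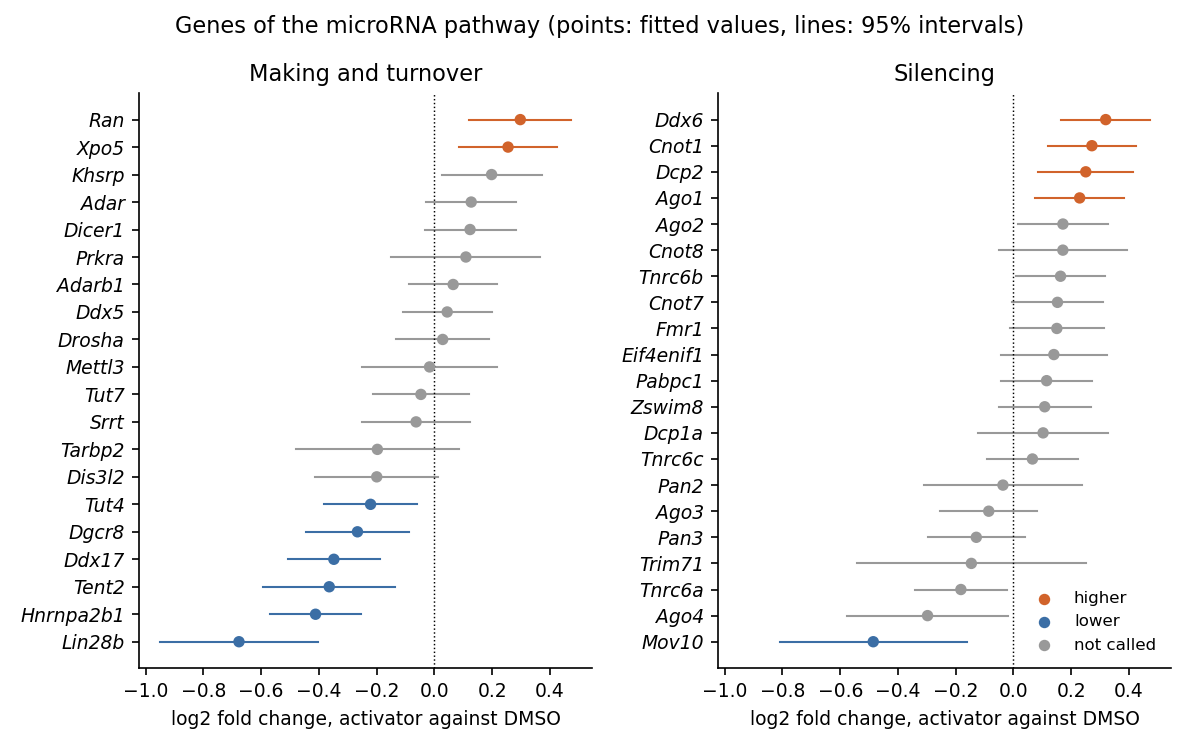
Log2 fold changes with 95% intervals (limma, activator against DMSO) for 20 genes that make or turn over microRNAs and 21 that silence targets; orange is called higher, blue called lower, grey not called. Lin28b stands lowest at -0.68 and Ddx6 highest at 0.32.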

How the data were processed

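Per the labels' protocols, TRIzol was used to isolate total RNA and a kit removed ribosomal RNA. The submitters' processing notes name TopHat2, Cufflinks 2.0.0 and the build mm9, with no role. Not given in the sources used here are the counter, its use of strand and introns, the annotation and any row filter. The authors deposited 1 table of CPM per library. No header names the unit, which was read from the values: 100% of values were whole multiples of 1 step, within 0.01 reads, which gave back whole reads.

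Fold changes are on the log2(CPM + 1) scale and understate the change of low rows. limma 3.58.1 in R 4.3.3 was fitted to all 4 libraries, with a spread that follows expression and Benjamini-Hochberg adjustment over 16654 genes (at least 1 CPM in at least 2 libraries), two-sided. With 2 residual and 98.0 prior degrees of freedom, the error of each gene comes mostly from all genes together. Intervals are limma's, at 95%. edgeR 4.0.16 and DESeq2 1.42.0 ran on recovered reads; edgeR called 1872 genes higher and 2846 lower. Adjusted p-values are limma's unless edgeR or DESeq2 is named. Copies were sought with blastn 2.17.0. Simulated data were used to test the limma fit.

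The members and lists were chosen with earlier results of these data known. Named were every host gene, the called precursors (at most 20), the 10 most abundant precursors, listed precursors of the p53 and neuronal lists, the called pathway genes with Drosha, Dgcr8, Dicer1 and Ago2, and genes that contain a named precursor. Mir6336, Mir876, Mir1927, Mir344, Mir344e, Mir411, Mir703, Mir133a-1, Mib1, Meg3, Rpl37a, Ftl1, Eef1a1 and C130071C03Rik were added after their values were seen. Alternatives were other pseudocounts, filters, scalings, variance models and tests, a replicate block and leaving out each library.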

Additional observations from a re-analysis of the deposited data

How the results depend on the processing

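At 14.6 to 19.1 reads per CPM, most precursors lie near the limit of what 4 libraries can show. Mir682, Mir9-1 and Mir134 changed sign and were not called in any alternative. Mir682 moved to -0.0038, -0.0077, -0.0055, -0.057 and -0.058 with TMM factors, edgeR, edgeR without a filter, quantile normalization and the mitochondrial reads set aside. Mir9-1 moved to -0.020, -0.017 and -0.034 with edgeR, edgeR without a filter and the mitochondrial reads set aside. Without 1 library, Mir682 ranged from -0.055 to 0.12 and Mir9-1 from -0.24 to 0.30. Mir134 passed the filter in 2 of the 4 removals, with -0.020 without DMSO replicate 2 and 0.27 without p53 activator replicate 2. The other 21 named loci that were tested kept their direction in the alternatives that gave a value.

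Over all genes, 1307 were higher with DESeq2, 1872 with edgeR, 1745 with edgeR without a filter, 302 with no trend, 1567 after quantile normalization and 1278 with the mitochondrial reads set aside, and 1508 were lower with DESeq2 and 1776 at a minimum of 5 CPM. Precursors called lower numbered 1 with DESeq2, 1 after quantile normalization and 0 at a minimum of 5 CPM, where 0 were higher, since fewer reach that level. DESeq2 gave no adjusted p for the 5 called precursors that passed the filter only through DMSO. Host genes called lower numbered 3 with DESeq2 and 3 with no trend. The cause was not tested. Without 1 library, 1140 to 2119 genes were higher and 1367 to 2543 lower, 1 to 8 precursors (of 12 to 20 tested) and 3 to 6 host genes were lower, and 1 precursor and 0 host genes were higher.

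Libraries of the same number share only that number (correlation of their deviations 0.12). The fit with a replicate block called 3705 genes higher and 3132 lower, 9 precursors lower and 6 host genes lower, with Mir9-3hg added (adjusted p = 0.0211).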
